A study of Mus musculus with 6 samples.

Results

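The 10 circadian clock genes described here are repressors and output factors, together with the activator gene Arntl. Among them are the period genes Per1, Per2 and Per3, and the D-box factors Nfil3, Dbp and Tef. The others are the nuclear receptor genes Nr1d1 and Nr1d2, the E-box repressor gene Bhlhe40, and Arntl. All 10 were taken by gene symbol from a table of 15796 genes, and all were listed there. They were selected on their FPKM in the 6 libraries, with the difference between overexpression and control already known, so their differences are given as descriptions, with no p-value, and what limma called among them supports nothing. RNA was sequenced in 6 libraries of the MC3T3-E1 line, pre-osteoblastic cells of the mouse. In 3 libraries the cells carried a plasmid with Hsd11b1 (overexpression), and in 3 they carried a plasmid with EGFP (controls, labelled WT for genotype). Both groups received 11-DHC (11-dehydrocorticosterone), the inert steroid from which the enzyme 11β-HSD1, encoded by Hsd11b1, makes corticosterone. The labels do not say whether replicates were separate cultures, whether transfected cells were selected, or at what time the cells were collected.

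The mammalian clock is a loop of transcription and repression. The proteins BMAL1 (encoded by Arntl) and CLOCK bind E-boxes in DNA and drive the period and cryptochrome genes, whose proteins then repress them. BMAL1 and CLOCK also drive Nr1d1 and Nr1d2, whose products REV-ERBα and REV-ERBβ repress Arntl through ROR elements, and Dbp and Tef, whose products activate genes with D-boxes that the Nfil3 product represses. Glucocorticoids reset the clock of many peripheral cells, and Per1 is a known direct target of the glucocorticoid receptor. With 1 collection per library, a change in the phase of a rhythm and a change in its mean level cannot be told apart, and in bulk RNA fewer cells of a kind cannot be told from less RNA per cell.

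The recovered depth was 18290824, 18655715 and 58665308 reads in overexpression 1 to 3 and 19932493, 34948122 and 16264239 reads in control 1 to 3. Levels are in FPKM, in which fragments are divided by exon length and sequencing depth, so that genes can be set side by side. Hsd11b1 itself had 323, 315 and 345 FPKM with overexpression, against 1.90, 0.404 and 0.275 FPKM in controls, and reads of the plasmid were not told from those of the cells' own gene. Of 8 osteoblast markers 6 were listed, while Alpl and Bglap were not, and their summed level was 1745 to 1822 FPKM with overexpression, against 1958 to 2113 FPKM in controls. They did not move together. Dmp1, a bone matrix protein gene, fell to 1.77 FPKM with overexpression, against 9.93 FPKM in controls (limma adjusted p = 1.71e-06). Runx2, the osteoblast transcription factor gene, rose to 14.6 FPKM with overexpression, against 12.1 FPKM in controls (limma adjusted p = 0.0442). Col1a1, Spp1 and Sp7 did not pass (limma adjusted p 0.175, 0.446 and 0.821), and Ibsp, with a mean below 1 FPKM and not tested, had 0.973 to 1.06 FPKM with overexpression and 0.0243 to 0.208 FPKM in controls. Of markers of other cells, muscle had 0 of 4 listed and adipocytes 1 of 4 (Fabp4, at 1.14 to 1.36 FPKM with overexpression and 0.101 to 0.159 FPKM in controls). Endothelium had 2 of 4, summing to 0.346 to 0.408 FPKM with overexpression and 0.240 to 0.283 FPKM in controls. Macrophages had 3 of 5 (without Ptprc and Adgre1), summing to 11.5 to 12.7 FPKM with overexpression and 11.9 to 13.4 FPKM in controls, and chondrocytes had 2 of 4. Of these, Sox9 rose to 24.5 FPKM with overexpression, against 18.7 FPKM in controls (limma adjusted p = 0.00754), and Col2a1 had 4.26 FPKM with overexpression and 4.63 FPKM in controls (limma adjusted p = 0.721). The 6 proliferation markers were all lower with overexpression, with a summed level of 144 to 148 FPKM, against 219 to 259 FPKM in controls. The part of these markers in the clock results was not tested.

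The 3 period genes, which encode the PER repressors of BMAL1 and CLOCK, differed in direction. Per1 (ENSMUSG00000020893, chromosome 11, 69095217 to 69109960, plus strand, GRCm38) had 33.4, 31.3 and 33.5 FPKM with overexpression, against 16.4, 19.3 and 20.8 FPKM in controls. Every overexpression library lay above every control library, and control 1 was the lowest of the controls. The mean was 1.74-fold that of controls (32.7 ± 1.21 against 18.8 ± 2.27 FPKM; SD, n = 3 each), a difference of 0.77 on the log2(FPKM + 1) scale (SE 0.09). Leaving out 1 library at a time gave differences of 0.68 to 0.85.

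Per2 (ENSMUSG00000055866, chromosome 1, 91415982 to 91459324, minus strand) went the other way, with 1.74, 1.32 and 1.69 FPKM with overexpression, against 2.61, 2.38 and 2.69 FPKM in controls. The groups did not overlap, and overexpression 2 was the lowest library. Per3 (ENSMUSG00000028957, chromosome 4, 151003652 to 151044665, minus strand) had 0.563, 0.597 and 0.506 FPKM with overexpression, against 1.58, 1.59 and 1.64 FPKM in controls. The mean of Per3 was 2.89-fold lower with overexpression and that of Per2 1.62-fold lower. Per3 rested on 99, 107 and 285 reads with overexpression and on 303, 535 and 257 reads in controls. Its controls were close together, with a coefficient of variation of 2.07%, against a median of 8.47% over all genes tested.

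**Figure D1:**
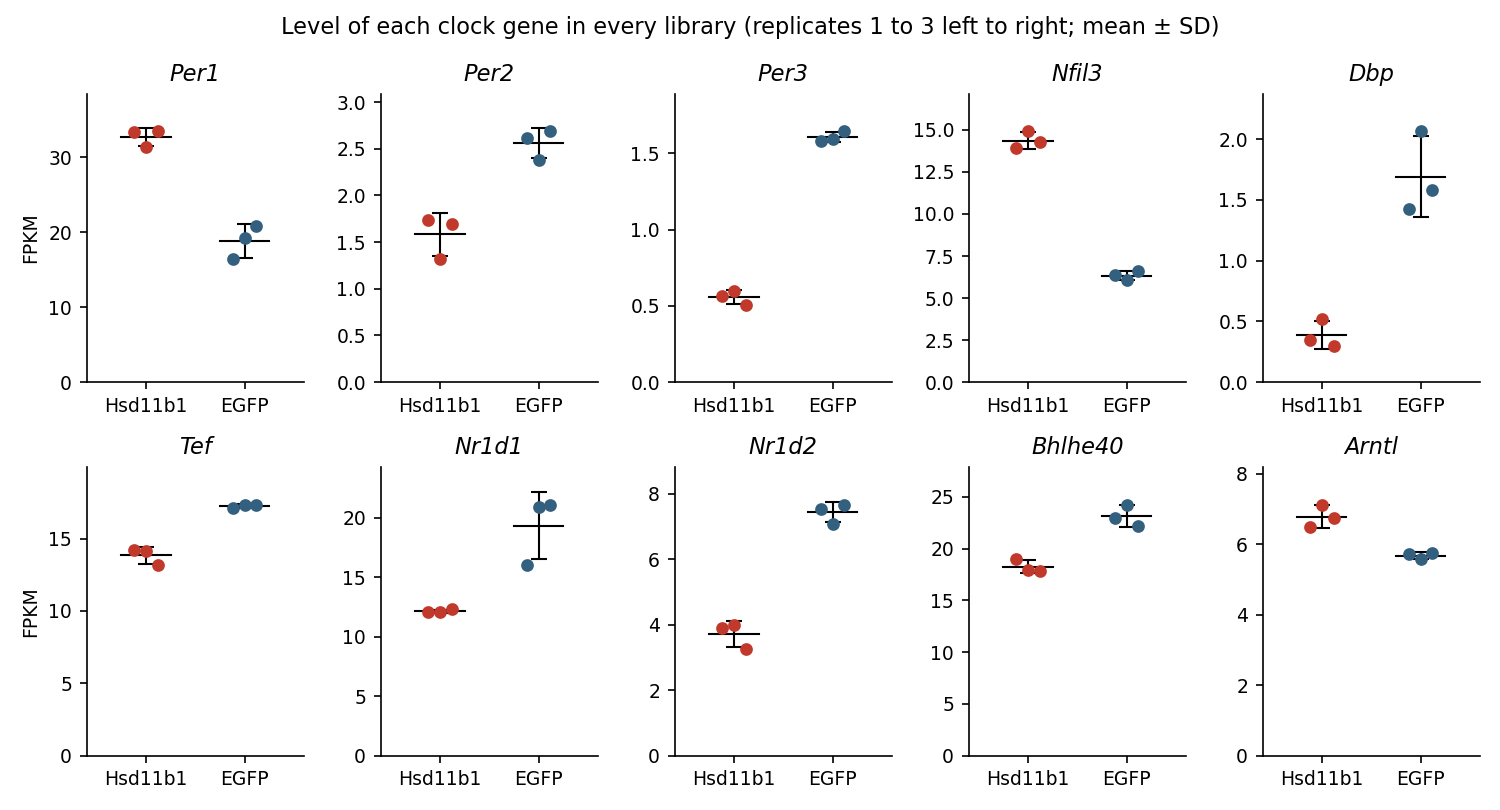
FPKM of the 10 clock genes (y axis, from 0, one scale per panel) in the 3 Hsd11b1 overexpression and the 3 EGFP control libraries, each point 1 library, with the mean and SD. Per1, Nfil3 and Arntl lie higher with overexpression, the other genes lower, and in no panel do the groups overlap.

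Because FPKM is per length, the period genes can be added. Their summed level was 34.9 ± 1.40 FPKM with overexpression and 23.0 ± 2.31 FPKM in controls (SD, n = 3 each). Per1 made up 93.6% to 94.2% of it with overexpression, against 79.6% to 82.9% in controls. The share of Per2 was 4.52% ± 0.488 with overexpression and 11.2% ± 1.32 in controls, and that of Per3 was 1.6% ± 0.190 with overexpression and 7.02% ± 0.599 in controls. The period transcripts of the overexpression cells were thus almost all Per1.

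The promoters of Per1 and Per3 are shown because these period genes differed in opposite directions. Each window runs from 250 bases before to 50 after a start site in RefSeq (build GRCm38.p6), on the gene's strand, with motif matches in capitals. For Per1 the window of the upstream of its 2 start sites (chr11:69098699-69098998, plus strand) is given, and for Per3 that of its single start site (chr4:151044616-151044915, minus strand). In Per1 the capitals mark, from 5′ to 3′, an E-box (CACGTG), a ROR core on the opposite strand (AGGTCA reversed) and a D-box (TTATGNAA). In Per3 they mark 2 D-boxes.
Per1: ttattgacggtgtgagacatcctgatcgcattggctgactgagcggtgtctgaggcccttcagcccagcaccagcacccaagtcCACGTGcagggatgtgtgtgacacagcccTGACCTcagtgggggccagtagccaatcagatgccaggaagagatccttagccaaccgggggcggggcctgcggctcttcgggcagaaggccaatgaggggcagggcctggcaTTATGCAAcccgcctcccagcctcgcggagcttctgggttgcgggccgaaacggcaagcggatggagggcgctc
Per3: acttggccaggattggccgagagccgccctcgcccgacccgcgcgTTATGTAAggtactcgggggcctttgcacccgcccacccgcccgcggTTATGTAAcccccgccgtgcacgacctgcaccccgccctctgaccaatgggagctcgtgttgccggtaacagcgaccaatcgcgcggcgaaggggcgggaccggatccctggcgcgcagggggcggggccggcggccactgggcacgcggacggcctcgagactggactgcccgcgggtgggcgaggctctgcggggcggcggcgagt

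The D-box factors shifted towards the repressor. Nfil3 (ENSMUSG00000056749, chromosome 13, 52967209 to 52981073, minus strand), which encodes the repressor E4BP4, had 13.9, 14.9 and 14.3 FPKM with overexpression, against 6.36, 6.04 and 6.59 FPKM in controls. All overexpression libraries were far above all controls, and the libraries of each group were close together. The mean was 2.27-fold that of controls, a smaller ratio than the falls of Dbp (4.36-fold) and Per3 (2.89-fold). On the log2(FPKM + 1) scale the difference of Nfil3, 1.07 (SE 0.07), was the highest among the 10 genes. It stayed between 1.04 and 1.09 with each library left out.

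Dbp (ENSMUSG00000059824, chromosome 7, 45705088 to 45710203, plus strand), which encodes the D-site activator DBP, had 0.347, 0.519 and 0.296 FPKM with overexpression, against 1.42, 2.07 and 1.58 FPKM in controls. Overexpression 2 and control 2 were the highest of their groups, and the groups did not overlap. The mean was 4.36-fold lower with overexpression (0.388 ± 0.117 against 1.69 ± 0.334 FPKM; SD, n = 3 each). The read numbers were small, at 19, 29 and 52 with overexpression and 85, 216 and 77 in controls, and the coefficients of variation (30.2% with overexpression and 19.7% in controls) were the widest of the 10 genes. On the log2(FPKM + 1) scale the difference was -0.95 (SE 0.12), since the added 1 is large beside these levels, while the log2 fold change for it in the authors' deposited table is -2.19. In GENCODE M21, 539 exonic bases of Dbp (18.0%) overlap exons of Sphk2, a sphingosine kinase gene on the opposite strand. Sphk2 had 5.39, 5.21 and 6.20 FPKM with overexpression and 4.20, 6.21 and 5.65 FPKM in controls, ranges that overlap. The strand setting of the counting is not given in the sources used here, so reads of that stretch may come from either gene. Smaller stretches of Tef (2.45%), Bhlhe40 (2.51%) and Arntl (0.439%) overlap noncoding or unnamed genes in the same way.

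Tef (ENSMUSG00000022389, chromosome 15, 81802421 to 81826863, plus strand), which encodes a close relative of DBP, was the more abundant activator. It had 14.2, 14.2 and 13.2 FPKM with overexpression, against 17.1, 17.3 and 17.3 FPKM in controls, a mean 1.25-fold lower. Its controls varied by only 0.692% (coefficient of variation). Tef carried most of the summed level of the pair, and Dbp only 2.20% to 3.54% of it with overexpression, against 7.68% to 10.6% in controls. The FPKM of Nfil3 divided by that of Dbp and Tef together was 0.956, 1.02 and 1.06 with overexpression, against 0.343, 0.311 and 0.348 in controls. Repressor and activator transcripts were thus about equal in the overexpression cells, while in controls the activators were the more abundant. Hlf, the remaining gene of this activator family, was not listed in the table.

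**Figure D2:**
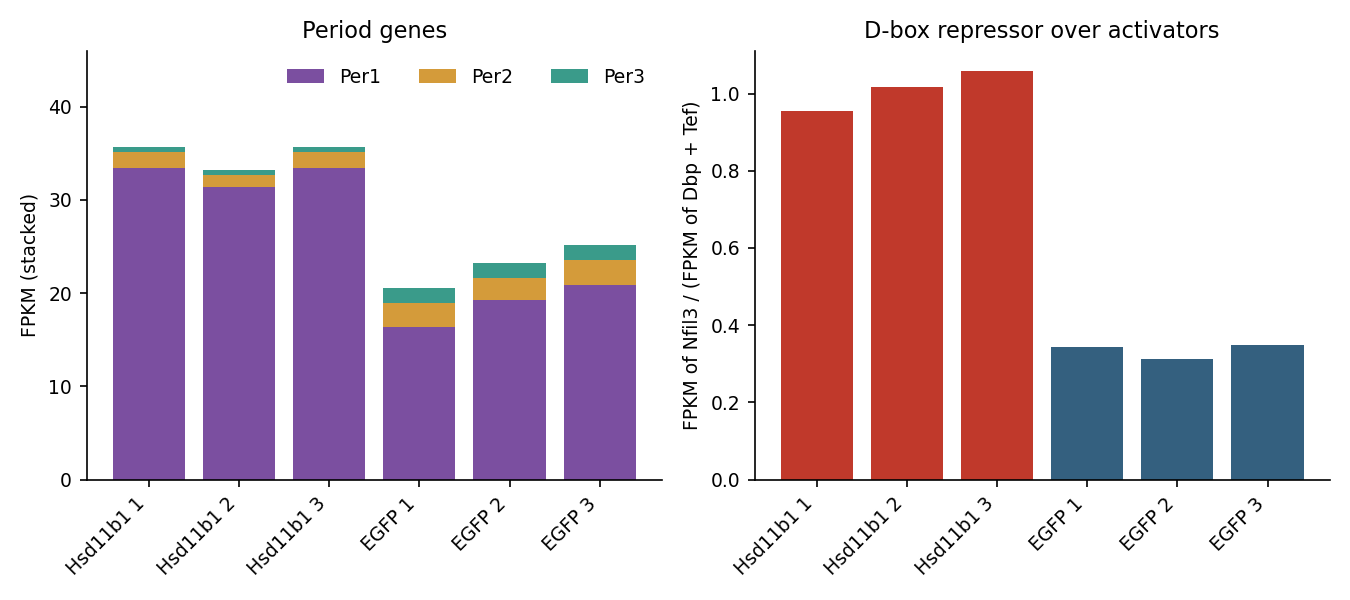
Left, FPKM of Per1, Per2 and Per3 stacked for each library (y axis from 0). Right, FPKM of Nfil3 divided by the sum for Dbp and Tef in each library (y axis from 0). The overexpression libraries have 93.6% to 94.2% Per1 and ratios of 0.956 to 1.06, the controls 79.6% to 82.9% and 0.311 to 0.348.

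Both REV-ERB genes, whose products repress Arntl, were lower with overexpression. Nr1d1 (ENSMUSG00000020889, chromosome 11, 98767932 to 98775333, minus strand) had 12.1, 12.1 and 12.3 FPKM with overexpression, against 16.1, 20.9 and 21.1 FPKM in controls. The overexpression libraries were nearly equal (coefficient of variation 1.13%), while control 1 stood below the other controls, as it did for Per1. The mean was 1.59-fold lower with overexpression, with a log2 difference of -0.62 (SE 0.10) that ran from -0.74 to -0.56 with each library left out. In GENCODE M21, 263 exonic bases of Nr1d1 (8.55%) overlap Thra, the thyroid hormone receptor alpha gene on the opposite strand. Thra had 20.5, 22.3 and 22.9 FPKM with overexpression and 16.7, 19.4 and 18.5 FPKM in controls, a difference in the opposite direction (0.26, limma adjusted p = 0.0697).

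Nr1d2 (ENSMUSG00000021775, chromosome 14, 18204054 to 18239127, minus strand) had 3.90, 3.97 and 3.26 FPKM with overexpression, against 7.54, 7.08 and 7.66 FPKM in controls. Overexpression 3 was the lowest library, and the groups were far apart. The mean was 2.0-fold lower with overexpression (log2 difference -0.84, SE 0.08). The summed level of the pair was 15.9 ± 0.255 FPKM with overexpression and 26.8 ± 2.78 FPKM in controls (SD, n = 3 each), and Nr1d1 was the larger part in every library, with 75.2% to 79.1% of the sum with overexpression and 68.1% to 74.7% in controls.

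The promoters of the REV-ERB genes are shown because both genes were lower and their windows hold different motifs. The Nr1d1 window (chr11:98775328-98775627, minus strand) has an E'-box (CACGTT, here on the opposite strand), and the Nr1d2 window (chr14:18239057-18239356, minus strand) has a ROR core (AGGTCA). The matches are in capitals.
Nr1d1: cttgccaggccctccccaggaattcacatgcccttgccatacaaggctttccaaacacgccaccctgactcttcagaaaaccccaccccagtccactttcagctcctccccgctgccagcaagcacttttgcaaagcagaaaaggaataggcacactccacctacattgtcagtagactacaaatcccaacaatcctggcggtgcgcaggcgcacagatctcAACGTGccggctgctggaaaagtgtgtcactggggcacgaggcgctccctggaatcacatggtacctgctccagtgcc
Nr1d2: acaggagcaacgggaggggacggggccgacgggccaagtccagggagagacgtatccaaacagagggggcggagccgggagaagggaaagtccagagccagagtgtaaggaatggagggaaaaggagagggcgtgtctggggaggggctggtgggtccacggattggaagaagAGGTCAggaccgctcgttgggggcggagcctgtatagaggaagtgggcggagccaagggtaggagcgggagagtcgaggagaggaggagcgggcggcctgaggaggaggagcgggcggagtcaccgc

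Arntl (ENSMUSG00000055116, chromosome 7, 113207465 to 113314126, plus strand) encodes the activator BMAL1 and is the target of REV-ERB repression. It had 6.48, 7.13 and 6.75 FPKM with overexpression, against 5.72, 5.57 and 5.75 FPKM in controls. The groups did not overlap, but the mean was only 1.19-fold that of controls, with a log2 difference of 0.22 (SE 0.07). Bhlhe40 (ENSMUSG00000030103, chromosome 6, 108660629 to 108666925, plus strand) encodes DEC1, a repressor that competes for E-boxes. It had 19.0, 18.0 and 17.9 FPKM with overexpression, against 23.0, 24.3 and 22.2 FPKM in controls, a mean 1.27-fold lower. Its relative Bhlhe41, which encodes DEC2, had 5.63 ± 0.0503 FPKM with overexpression and 5.08 ± 0.364 FPKM in controls (SD, n = 3 each, log2 difference 0.13, limma adjusted p = 0.316). In GENCODE M21, 1280 exonic bases of Bhlhe41 (19.0%) overlap exons of Gm43909 on the opposite strand. Gm43909 had 5.89, 6.11 and 5.69 FPKM with overexpression and 5.03, 4.62 and 5.67 FPKM in controls.

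All 10 genes had a mean of at least 1 FPKM over the 6 libraries and entered the fit, Dbp and Per3 only through the controls, since their overexpression means were below 1. Of the 10, limma's adjusted p was under 0.05 for 9 (2 higher, 7 lower) and above it for Arntl. Over all 13120 genes tested, 12.1% passed (6.22% higher and 5.84% lower). All 10 had groups that did not overlap, as had 30.8% of all genes. The genes were chosen with this contrast known, so nothing is read from these counts.

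The order of the 10 genes by level differed between the groups. With overexpression it ran Per1, Bhlhe40, Nfil3, Tef, Nr1d1, Arntl, Nr1d2, Per2, Per3 and Dbp, where the ranges of Nfil3 and Tef, and those of Per3 and Dbp, overlapped. In controls it ran Bhlhe40, Nr1d1, Per1, Tef, Nr1d2, Nfil3, Arntl, Per2, Dbp and Per3, where the ranges of Nr1d1 and Per1, of Per1 and Tef, and of Dbp and Per3 overlapped. Per1 was at rank 1 with overexpression and rank 3 in controls, and Nfil3 at rank 3 with overexpression and rank 6 in controls. Per2, Per3 and Dbp held the 3 lowest ranks in both groups. For comparison, the median level of all genes tested was 7.46 FPKM with overexpression and 7.55 FPKM in controls.

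**Figure D3:**
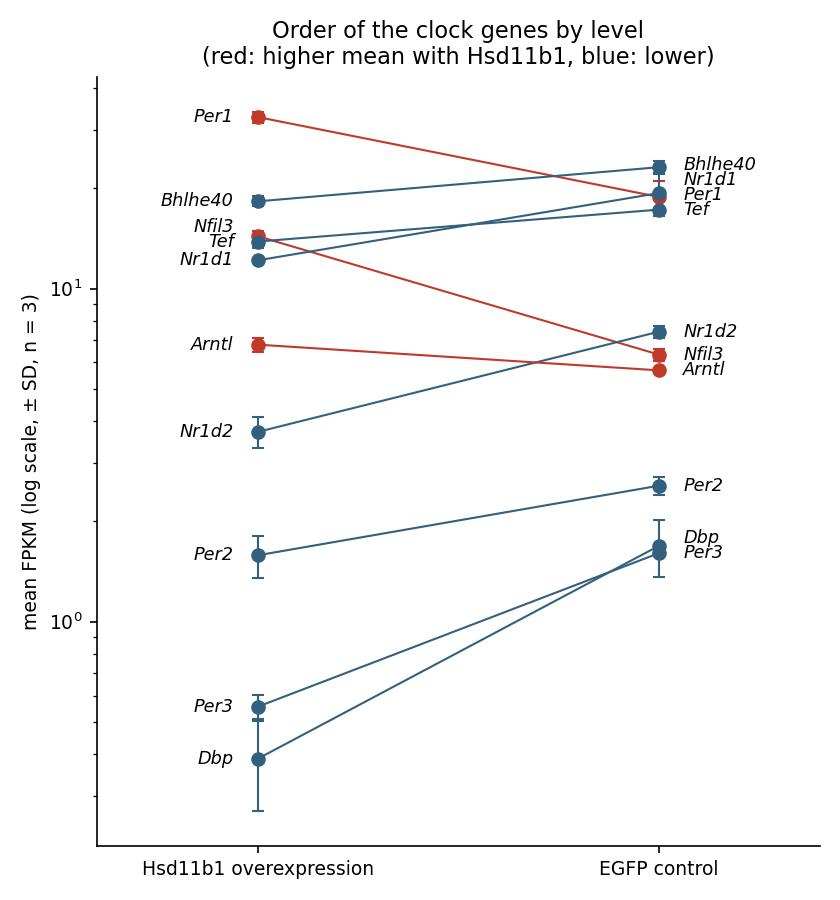
Mean FPKM (log scale, bars SD, n = 3) of the 10 genes in overexpression libraries (left) and control libraries (right), with a line joining the means of each gene. The lines of Per1 and Nfil3 cross those of other genes, and Per2, Per3 and Dbp stay lowest on both sides.

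The rest of the clock was read from a list of 49 further genes: partners, regulators and outputs of the loop. Of these, 43 were in the table and 42 were tested (Prkaa2 was below 1 FPKM). Npas2, Hlf, Fbxl21 and Ppargc1a were among those not listed. By limma, 4 rose, 1 fell and 37 did not pass, so 11.9% passed, against 12.1% of all genes tested. The median log2 difference was 0.03 for the list and -0.01 over all genes, and the median size of the difference was 0.09 for the list and 0.11 over all genes. The share of genes past the threshold was thus near the background. Groups that did not overlap were found for 17 of the 42 (40.5%), against 30.8% of all genes.

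Usp2, a deubiquitinase gene whose products act on clock proteins, rose most. It had 5.07, 5.47 and 5.01 FPKM with overexpression, against 2.20, 2.46 and 2.48 FPKM in controls (log2 difference 0.87, SE 0.07, limma adjusted p = 0.000232). Klf9, a clock-controlled transcription factor gene that glucocorticoids also induce, rose to 17.3 ± 0.539 FPKM with overexpression, against 12.8 ± 0.620 FPKM in controls (SD, n = 3 each, limma adjusted p = 0.00469). Ddb1, a subunit of the CUL4 ubiquitin ligase, rose to 314 ± 4.59 FPKM with overexpression, against 238 ± 3.42 FPKM in controls (SD, n = 3 each, limma adjusted p = 0.00570). Its exons overlap those of Tkfc on the opposite strand over 328 bases (5.12%), and Tkfc also rose (0.50, limma adjusted p = 0.0191). Btrc, an F-box gene whose product recognizes phosphorylated PER proteins, rose by a log2 difference of 0.28 (limma adjusted p = 0.0389) a call that ended whichever library was left out (limma adjusted p 0.0621 to 0.144).

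Timeless, which in mammals encodes a replication fork protein related to a clock protein of the fly, was the gene that fell. It had 6.63, 6.67 and 8.26 FPKM with overexpression, against 10.1, 9.87 and 9.64 FPKM in controls (log2 difference -0.42, SE 0.09, limma adjusted p = 0.0167). Without overexpression 1, overexpression 2 or control 3 the call was lost (limma adjusted p 0.0686, 0.0741 and 0.0507). The proliferation markers moved with it, as given above, and their part was not tested.

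Clock, Rora, Cry1, Cry2 and Ciart did not pass on the log2(FPKM + 1) scale with an added 1, though Cry2 and Ciart passed in other fits. Clock, which encodes the partner of BMAL1, had 7.08, 6.86 and 5.81 FPKM with overexpression and 6.67, 5.54 and 7.09 FPKM in controls, and the groups overlapped (limma adjusted p = 0.898). Rora, which encodes the activator at ROR elements, had 1.67 ± 0.187 FPKM with overexpression and 1.59 ± 0.163 FPKM in controls (SD, n = 3 each, limma adjusted p = 0.843). The cryptochrome genes Cry1 and Cry2 encode the partners of the PER proteins. Cry1 had 3.09, 2.95 and 3.19 FPKM with overexpression, against 3.67, 3.73 and 3.61 FPKM in controls (limma adjusted p = 0.110). Cry2 had 2.042, 1.357 and 1.518 FPKM with overexpression, against 2.104, 2.173 and 2.053 FPKM in controls (limma adjusted p = 0.185), with overexpression 1 next to the controls. On recovered reads Cry2 passed (limma with voom, adjusted p = 0.0438), and in the other alternatives its adjusted p was 0.064 to 0.466. Ciart, which encodes the repressor CHRONO, had 1.57, 2.47 and 1.98 FPKM with overexpression, against 3.13, 3.08 and 2.72 FPKM in controls (log2 difference -0.41, SE 0.12, limma adjusted p = 0.0521). Ciart passed in 4 alternatives: without overexpression 2 (limma adjusted p = 0.0272), on recovered reads (limma with voom, adjusted p = 0.0193), with a pseudocount of 5 (limma adjusted p = 0.0465) and without a trend (limma adjusted p = 0.0486). In the others its adjusted p was 0.0554 to 0.207.

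**Figure D4:**
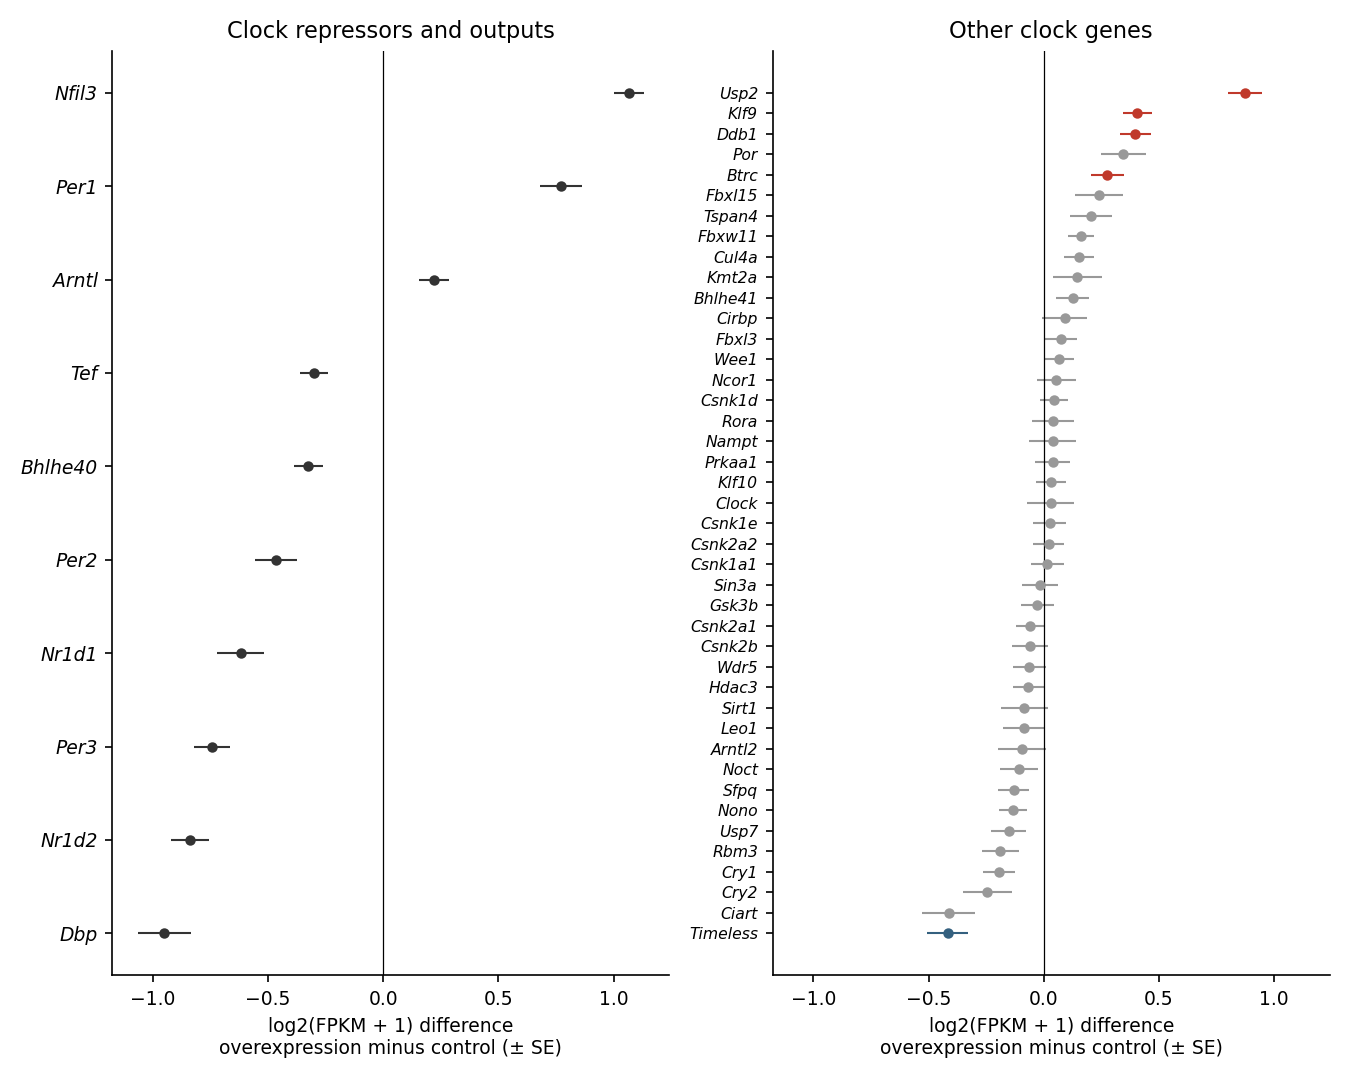
Log2(FPKM + 1) difference, overexpression minus control, with its SE, for the 10 clock genes (left, calls not marked) and 42 other clock genes (right). On the right, red marks the 4 genes that rose, blue the 1 that fell, and grey the 37 that did not pass. Most of the grey points lie close to 0.

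The promoters were searched for motifs, and the choice of genes did not use their sequence. It did take genes of the clock, which works through E-boxes, D-boxes and ROR elements. The shares of these motifs are therefore not independent of the choice. RefSeq windows of 300 bases were found for 8 of the 10 genes, 11 windows in all, with 2 start sites each for Per1, Tef and Arntl, while Per2 and Bhlhe40 had none. The 2 Arntl windows (chr7:113207215-113207514 and chr7:113207261-113207560) share most of their bases, so they are not separate stretches. Both strands were searched, and a match is a description of letters, not of binding. Sequence outside these windows was not searched, so a motif missing from a window may still lie elsewhere in or near the gene. The 11 windows held 56.3% to 81.7% G and C, against a median of 52.7% over all windows. The shares over all windows given below are not matched for this. The E-box (CACGTG, which reads the same on both strands) was in 3 of the 11 windows, those of Per1 and both of Tef, and in 7.15% of all 32851 windows. The E'-box (CACGTT) was in 1 window, that of Nr1d1, and in 4.68% of all. The D-box (TTATGNAA) was in the windows of Per1 and Per3 and in 3.38% of all, and Per3 held it 2 times, in both cases as TTATGTAA.

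The ROR core (AGGTCA) was in windows of Arntl, Nfil3, Nr1d2 and Per1 and in 16.3% of all windows. The full palindromic glucocorticoid response element was in 0 of the 11 windows and in 0.475% of all, and a CRE (TGACGTCA) in 0 of the 11 and in 1.79% of all. In these matches no motif overlapped another. The Nfil3 window (chr13:52980990-52981289, minus strand) is shown because Nfil3 was the gene with the highest difference. It holds 81.7% G and C, against a median of 52.7% over all windows, and a ROR core on the opposite strand (in capitals) that ends 7 bases before the start site.
Nfil3: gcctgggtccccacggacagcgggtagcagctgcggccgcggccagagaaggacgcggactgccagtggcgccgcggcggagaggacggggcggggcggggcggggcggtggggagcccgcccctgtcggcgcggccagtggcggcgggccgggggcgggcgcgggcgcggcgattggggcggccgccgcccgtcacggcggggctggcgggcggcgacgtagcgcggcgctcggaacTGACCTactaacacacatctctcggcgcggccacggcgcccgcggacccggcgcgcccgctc

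**Figure D5:**
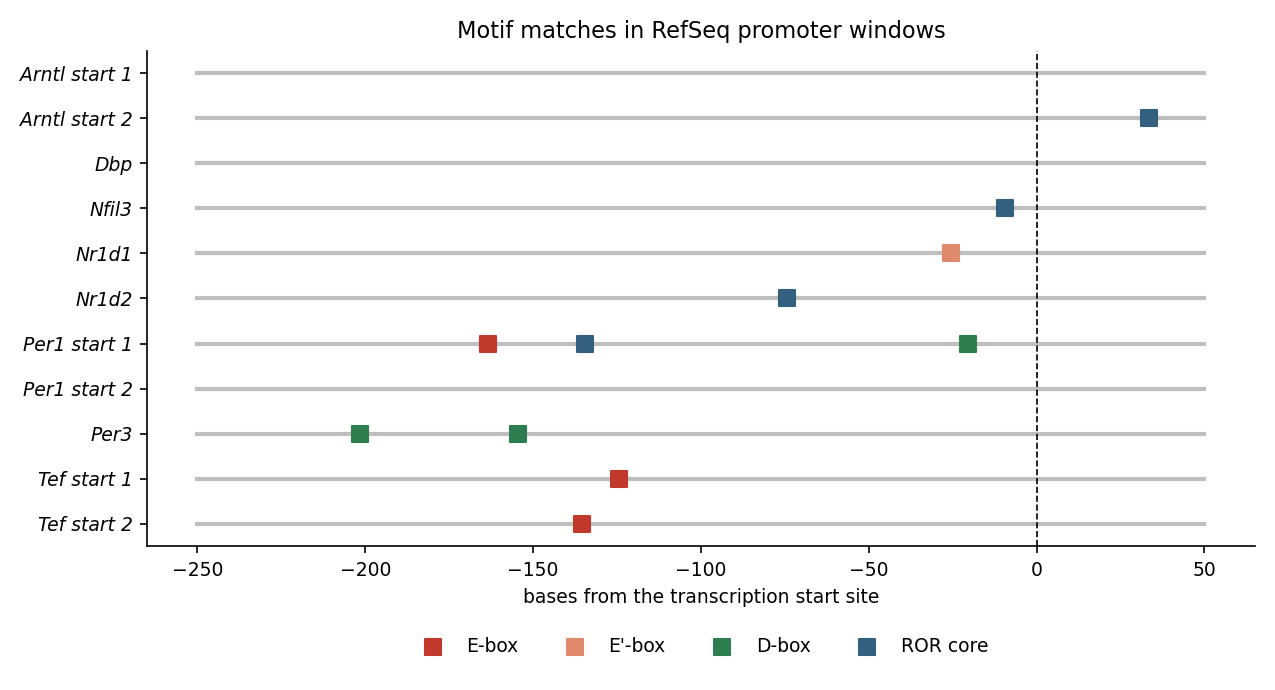
Positions of motif matches (squares, coloured by motif) in the 11 RefSeq promoter windows of 8 of the clock genes, as bases from the start site (x axis, dashed line at 0). The Per1 upstream window holds an E-box, a ROR core and a D-box, the Per3 window 2 D-boxes, and the windows of Dbp, the other Per1 start and 1 Arntl start hold none of the motifs drawn.

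By Pearson's r of log2(FPKM + 1) over the 6 libraries, the coding genes most like Per1 outside the 10 were Tbc1d2b, a Rab GTPase-activating protein gene (r = 0.998), Snx18, a sorting nexin gene (r = 0.998), and the kinase gene Nuak1 (r = 0.997). Tbc1d2b had 9.57, 9.48 and 9.80 FPKM with overexpression, against 6.47, 7.04 and 7.32 FPKM in controls. Like Per1, these genes were lowest in control 1. The difference between the groups sets most of such a correlation, so it is given as a description with no p. The steroid-responsive genes Fkbp5 and Tsc22d3 had 96.0 ± 2.51 and 186 ± 1.53 FPKM with overexpression, against 21.1 ± 0.207 and 49.9 ± 1.72 FPKM in controls (SD, n = 3 each).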

How the data were processed

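RNA was sequenced in 3 Hsd11b1 overexpression and 3 control libraries. Build mm10 (GRCm38) and the tools cutadapt 2.5, HISAT2 2.1.0 and featureCounts 1.6.3 appear in the submitters' processing notes. The authors deposited FPKM per gene and library. The deposited table also has the authors' log2 fold change per gene, printed here for Dbp, and their p-value, raw and adjusted, which was not used. How these were tested is not given in the sources used here.

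Read totals were recovered from FPKM and union exon lengths of GENCODE M21: at or below 1000 reads, 93.7% to 94.9% of values per library were whole within 0.05 reads. limma 3.58.1 in R 4.3.3 (lmFit, eBayes with a trend) compared overexpression with control on log2(FPKM + 1) for 13120 genes whose mean FPKM reached 1. The tests were two-sided, with Benjamini-Hochberg adjustment over all of these genes and a threshold of 0.05. The script was tested on simulated data. P-values measure the spread between these libraries, which may be technical.

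The 10 genes, the gene lists and the tests were chosen with earlier results of these data known. Named genes are the 10, each other clock gene past the threshold, 6 fixed partners (Clock, Npas2, Cry1, Cry2, Rora, Ciart), the 3 coding genes most correlated with Per1, and Hsd11b1, Fkbp5 and Tsc22d3. Bhlhe41, Por and the genes on opposite strands were added after their values were seen. Promoters are RefSeq's (GRCm38.p6).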

Additional observations from a re-analysis of the deposited data

How the results depend on the processing

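All 10 clock genes kept the sign of their difference in every alternative in which they were tested, and so did the 5 other clock genes that passed. The groups of these genes did not overlap, so leaving out a library or changing the pseudocount could not reverse a sign. Nothing is therefore read from the kept signs. Of the 10, the genes past the threshold on the lower side numbered 4 with a mean FPKM of at least 5 (7 genes tested), 5 to 7 with 1 library left out, and 3 without the deepest library of each group, a fit added after seeing the data. Bhlhe40 and Tef dropped out without overexpression 2, Per2 and Tef without control 3. Arntl passed on recovered reads (limma with voom). The pseudocount set the size for low genes: the difference of Dbp was -1.89 at 0.1 and -0.31 at 5, and that of Per3 -1.38 and -0.25. Lower calls among the other clock genes numbered 2 with a pseudocount of 5, 2 without a trend, 3 with voom on recovered reads, and 0 to 1 with 1 library left out. Over all genes, with 1 library left out the higher calls numbered 483 to 719 and the lower ones 412 to 618 (lowest without overexpression 2), and leaving out the deepest pair 478 lower. With CANNTG in place of CACGTG, 7 of 11 windows held an E-box, against 72.3% of all windows.

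Deviations from the group means had correlations of 0.209, -0.294 and -0.027 between same-numbered libraries. With 3 libraries per group, such values cannot show whether the numbers pair them. The largest correlation, 0.418, was between overexpression 3 and control 2, the deepest library of each group. The replicate block gave 688 higher and 628 lower genes over all, the same 2 higher and 7 lower among the 10, and ended the call of Btrc (limma adjusted p = 0.0950). Dbp is limited by depth, with 19 reads in overexpression 1.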
